A study of Mus musculus with 2 samples.

Results

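The heat shock chaperones of the cytosol, nucleus and mitochondria were examined in liver RNA of mice that lack Lpcat3 in hepatocytes and of their floxed controls. A gene belonged to the set when its symbol in the platform annotation began with Hspa, Hspb, Hspd, Hspe, Hsph, Hsp90a, Dnaja, Dnajb or Dnajc, or with Cct or Bag before a digit, or was Hsf1 or Hsf2. The endoplasmic reticulum (ER) chaperones Hspa5, Hspa13, Dnajb9, Dnajb11, Dnajc1, Dnajc3 and Dnajc10 were left out. Location in the cell was not otherwise used to select members, so further ER proteins may be among them. The rule gave 186 of 45101 probe sets, which name 80 of 18193 genes. No probe set with 1 gene symbol named Hsf1 or Hsp90ab1, and 3 further probe sets name both Dnajc19 and a pseudogene of it, so these genes were not analysed here.

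The L-Lpcat3 KO group was male Lpcat3fl/fl Albumin-Cre mice, in which the albumin promoter drives Cre in hepatocytes, so that other liver cells keep Lpcat3. The control group was male Lpcat3fl/fl mice without Cre. All mice were 16 weeks old. They had eaten western diet for 9 weeks, starting at 7 weeks of age, and liver was taken after a 6 hr fast. RNA of 5 mice was pooled per genotype and hybridised to 1 Affymetrix Mouse Genome 430 2.0 array each, and both groups carry the floxed allele.

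Heat shock chaperones bind unfolded protein and release it for folding. HSP70 proteins take up clients that DNAJ proteins deliver, BAG and HSP110 proteins make HSP70 let go of its nucleotide, HSP90 finishes the maturation of kinases and hormone receptors, and the chaperonins TRiC (cytosol) and HSP60 with HSP10 (mitochondria) fold proteins inside a closed chamber. Small heat shock proteins hold unfolded protein without using ATP. Transcription of the inducible members is activated by Hsf1, which binds heat shock elements, alternating GAA and TTC units spaced by a pair of bases.

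Promoter sequences from RefSeq (GRCm38.p6, 250 bases before to 50 after the start site) were matched by symbol for 66 of the 80 genes. The 8 letters GAANNTTC or TTCNNGAA, which read the same on both strands, were in the promoters of 20 of these genes and in 25.6% of their 86 promoters, against 15.1% of all 32851 promoters in the table. A run of 3 alternating units with the same spacing (GAA, TTC and GAA, or its reverse complement) was in 4 genes (Dnajb6, Hspd1, Hspe1 and Hsph1). It was in 6.98% of the 86 promoters, against 0.603% of all promoters. Every match of 3 units also holds a pair of the 8-letter matches, so these counts overlap. Dnajb6 and Hsph1 each have overlapping promoters in the table that carry the same run, and Hspd1 and Hspe1 share one. The promoter shares thus count some stretches more than once. Such repeats were not removed from the share of all promoters either. The stretches below carry the matches, in capitals, for the member that passed 2-fold (Hspb1) and for textbook inducible members that did not. Dnajb6, which is not on the list of stress-inducible Hsf1 targets used below, is printed too, with its run of 3 units. The inducible members Hsp90aa1 and Dnajb1 were not among the 20 genes, for lack of a match or of a promoter in the table. A match is a description of the letters and not a measured binding site. The run of 3 units in Hsph1 reaches past the start site and is not printed, so its stretch shows only an 8-letter match upstream of it.
Hspb1, chr5:135887782-135887849, + strand: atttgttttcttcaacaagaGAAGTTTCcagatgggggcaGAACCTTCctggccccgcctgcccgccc
Hspe1, chr1:55088039-55088096, + strand: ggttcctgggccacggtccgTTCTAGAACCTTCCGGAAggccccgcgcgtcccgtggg
Hspa1a, chr17:34972233-34972280, - strand: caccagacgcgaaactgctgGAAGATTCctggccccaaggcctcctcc
Hspa1b, chr17:34959315-34959362, - strand: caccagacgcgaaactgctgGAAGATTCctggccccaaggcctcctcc
Dnaja1, chr4:40722324-40722371, + strand: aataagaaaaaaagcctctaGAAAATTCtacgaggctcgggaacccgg
Dnajb6, chr5:29735832-29735884, + strand: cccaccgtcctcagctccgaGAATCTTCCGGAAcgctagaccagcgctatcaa
Hsph1, chr5:149636342-149636389, - strand: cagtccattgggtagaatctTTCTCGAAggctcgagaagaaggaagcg
Counted to the first capital, the matches begin 117 bases before the start site in Hspb1, 89 in Hspe1, 104 in both Hspa1a and Hspa1b, and 124 in Dnaja1. The Hspe1 stretch is also the promoter of Hspd1, which is read from the opposite strand of the same bases. The stretches of Hspa1a and Hspa1b are identical over their 48 bases.

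The deposited values are MAS5 signal intensities on a linear scale. Values below the median of all signals, 86.6, were raised to that floor, log2 ratios are L-Lpcat3 KO over Lpcat3fl/fl, and a gene was counted as measured when its probe set of highest mean signal reached the floor on at least 1 array. A pool is a single sample, so no comparison here has a replicate check or a p-value, and the number of arrays limits the precision. Probe sets of the same gene differed in log2 ratio with a pooled SD of 0.29 over 4476 genes. This SD is given as a measure of disagreement among probe sets on this pair of arrays. It leaves out the spread between mice and any error that moves all probe sets of a gene together. Lpcat3 itself had a signal of 2198 on the L-Lpcat3 KO array and 5173 on the Lpcat3fl/fl array, a log2 ratio of -1.23. Cell type markers differed between the arrays. Of 12 macrophage markers 7 were higher by 2-fold or more in L-Lpcat3 KO liver, with a summed signal of 33617 in L-Lpcat3 KO liver and 15129 in Lpcat3fl/fl liver. Of 8 measured stellate and smooth muscle markers 5 were, with sums of 11763 in L-Lpcat3 KO liver and 5632 in Lpcat3fl/fl liver, and of 8 endothelial markers 3 were, with sums of 7213 in L-Lpcat3 KO liver and 5523 in Lpcat3fl/fl liver. All 5 measured B cell and plasma cell markers were, with sums of 4537 in L-Lpcat3 KO liver and 898 in Lpcat3fl/fl liver. Both measured adipocyte markers were too, with sums of 533 in L-Lpcat3 KO liver and 103 in Lpcat3fl/fl liver. The Lpcat3fl/fl value was below the floor for 3 of the B cell and plasma cell markers and for both adipocyte markers. Sums were taken on the deposited signals, without raising values to the floor. The 12 hepatocyte markers had a summed signal of 333903 in L-Lpcat3 KO liver and 368751 in Lpcat3fl/fl liver, and none reached 1.5-fold. More cells of a type and more RNA per cell cannot be told apart in such samples.

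As a set, the chaperone genes were nearly level between the genotypes. Of the 80 genes 68 were measured, and 1 of these, Hspb1, reached 2-fold on the higher side in L-Lpcat3 KO liver, while none did on the lower side. Of all 12290 measured genes, 2.7% were higher and 0.7% lower at this threshold. No chaperone gene reached 3-fold, at which 0.448% of all measured genes were higher and 0.0895% lower. The median log2 ratio of the chaperone genes was -0.01, against 0.01 for all measured genes, with 32 chaperone genes above 0 and 36 below. Their summed signal was 170205 in L-Lpcat3 KO liver and 171747 in Lpcat3fl/fl liver.

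The spread of the set was also small. Of the 68 genes 64 lay within 1.5-fold (94.1%), against 87.1% of all measured genes. The median absolute log2 ratio was 0.11, against 0.21 for all measured genes. Of the genes with a mean signal of at least 1000, 33 of 34 chaperone genes and 94.1% of all 4277 genes lay within 1.5-fold, with median absolute log2 ratios of 0.08 and 0.15. The genes beyond 1.5-fold were Hspb1, Dnajc9 and Dnajc11 on the higher side and Dnajc24 on the lower side. At that threshold 9.07% of all measured genes were higher and 3.83% lower.

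**Figure D1:**
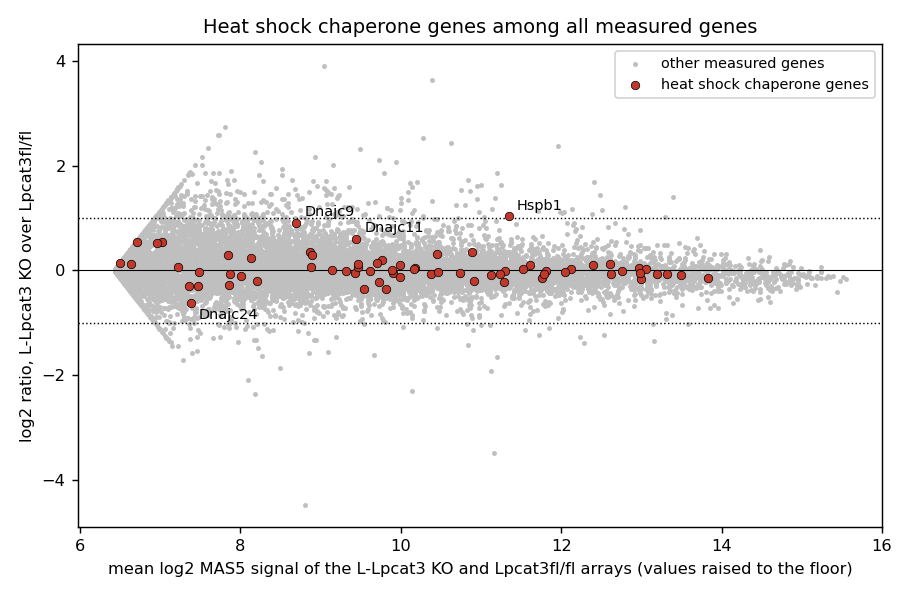
Log2 ratio (L-Lpcat3 KO over Lpcat3fl/fl, y axis) against the mean log2 signal of the arrays (x axis), with 1 point per measured gene; red points are the 68 chaperone genes and dotted lines mark 2-fold. The red points lie about the zero line over the whole range of signal, and Hspb1 is the one above the upper dotted line.

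Small heat shock proteins held the member with the largest difference. Their log2 ratios had an SD of 0.61 over 5 measured genes, against 0.32 over the 21 DNAJC genes, although the DNAJC genes covered the wider range. Hspb1 (HSP27, an actin-binding holdase) had a signal of 3724 in L-Lpcat3 KO liver and 1815 in Lpcat3fl/fl liver, a 2.05-fold difference (log2 ratio 1.04). Its second probe set read 1886 in L-Lpcat3 KO liver and 1040 in Lpcat3fl/fl liver, a log2 ratio of 0.86. Both probe sets gave the higher value in the L-Lpcat3 KO pool, and that of the lower signal did not reach 2-fold. That second probe set is of a kind that can match several transcripts. Hspb1 is also expressed in smooth muscle and endothelium, whose markers had higher sums on the same array. The endothelial markers were mixed, with 6 of 8 above 0, 2 below, and 5 within 1.5-fold. The part of these cells in the difference of Hspb1 was not tested.

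Hspb8, a partner of Bag3 in the removal of aggregated protein, read 4190 in L-Lpcat3 KO liver and 4287 in Lpcat3fl/fl liver. Its 3 measured probe sets had log2 ratios from -0.10 to 0.07, so the pool values lay close together on each of them. Hspb6, a muscle-enriched member, was at 792 in L-Lpcat3 KO liver and 1019 in Lpcat3fl/fl liver (log2 ratio -0.36). Hspb11, which also serves in transport along cilia, read 659 in L-Lpcat3 KO liver and 846 in Lpcat3fl/fl liver (-0.36). Hspb2 reached the floor only in L-Lpcat3 KO liver, with 127 there and 54.9 in Lpcat3fl/fl liver, so its log2 ratio of at least 0.55 is a lower bound. The small heat shock gene Cryab, which the rule does not select, overlaps Hspb2 in the RefSeq annotation. Cryab was at 353 in L-Lpcat3 KO liver and 209 in Lpcat3fl/fl liver (0.76). Of 5 skeletal muscle markers 2 were measured, both near the floor, at -0.44 (Ckm) and 0.19 (Mylpf). Hspb3, Hspb7 and Hspb9, which are genes of muscle or testis, were below the floor on both arrays.

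The HSP70 family showed no member at 2-fold among 7 measured genes, and its median log2 ratio was 0.13. That median is the value of Hspa12a, a lower bound near the floor. Of the 7 genes 4 were above 0 and 3 below. The summed signal of the family was 26742 in L-Lpcat3 KO liver and 28786 in Lpcat3fl/fl liver. Hspa8 (HSC70, the constitutive cytosolic form) had a signal of 13890 in L-Lpcat3 KO liver and 15271 in Lpcat3fl/fl liver, and its 4 measured probe sets ran from -0.14 to 0.09. Hspa9 (mortalin, the mitochondrial form) read 9122 in L-Lpcat3 KO liver and 9602 in Lpcat3fl/fl liver, with 3 measured probe sets from -0.12 to 0.27. Neither of these housekeeping forms had a probe set beyond the pooled SD. Of the stress-inducible pair, Hspa1a read 150 in L-Lpcat3 KO liver and 104 in Lpcat3fl/fl liver, a log2 ratio of 0.52 close to the floor. Hspa1b read 2306 in L-Lpcat3 KO liver and 2703 in Lpcat3fl/fl liver (-0.23) on the probe set that represents it. Its second probe set read 697 in L-Lpcat3 KO liver and 616 in Lpcat3fl/fl liver (0.18), and the third 923 in L-Lpcat3 KO liver and 702 in Lpcat3fl/fl liver (0.40). The probe sets of Hspa1b thus disagreed in sign. Hspa1a and Hspa1b are near-identical copies, so a signal cannot be given to one of them alone. Hspa2, a form enriched in testis, was at 305 in L-Lpcat3 KO liver and 258 in Lpcat3fl/fl liver (0.24), and Hspa14, a ribosome-associated form, was at 875 in L-Lpcat3 KO liver and 792 in Lpcat3fl/fl liver (0.14). Hspa12a reached the floor only in L-Lpcat3 KO liver (at least 0.13), and Hspa1l and Hspa12b were below it on both arrays.

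**Figure D2:**
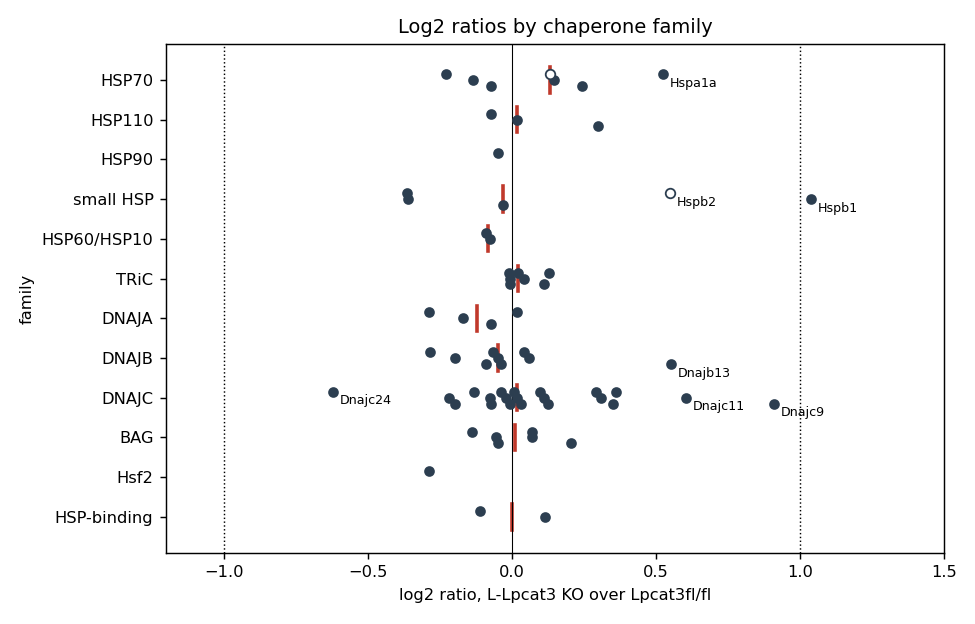
Points are measured chaperone genes at their log2 ratio (L-Lpcat3 KO over Lpcat3fl/fl); rows are families, red bars are medians of families with more than 1 measured gene, open points have 1 side below the floor and dotted lines mark 2-fold. TRiC and HSP60/HSP10 sit in a narrow band at 0, whereas small HSP genes run from -0.36 to 1.04 and DNAJC genes from -0.62 to 0.91.

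HSP110 proteins, which exchange the nucleotide of HSP70, stayed within 1.5-fold in all 3 genes, as did 87.1% of all measured genes. Hsph1, an inducible gene, read 1151 in L-Lpcat3 KO liver and 1138 in Lpcat3fl/fl liver (log2 ratio 0.02, with -0.19 on its other probe set). Hspa4 was at 2351 in L-Lpcat3 KO liver and 2475 in Lpcat3fl/fl liver, and its 3 measured probe sets were all below 0, from -0.39 to -0.07. Hspa4l was at 529 in L-Lpcat3 KO liver and 430 in Lpcat3fl/fl liver (0.30), but among its 5 measured probe sets the ratio went down to -0.37 and up to 0.31. Hsp90aa1, the inducible cytosolic HSP90, read 7944 in L-Lpcat3 KO liver and 8219 in Lpcat3fl/fl liver (-0.05), and its other measured probe sets, of lower signal, reached 0.37.

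The chaperonins were the most even of the families with several genes. The 7 measured TRiC subunits had log2 ratios from -0.01 (Cct7) to 0.13 (Cct4), with a median of 0.02. Cct4 read 6558 in L-Lpcat3 KO liver and 5993 in Lpcat3fl/fl liver. Cct3 read 5603 in L-Lpcat3 KO liver and 5192 in Lpcat3fl/fl liver (0.11). Cct6a read 8139 in L-Lpcat3 KO liver and 7908 in Lpcat3fl/fl liver (0.04). Each of these differences is within the pooled SD. The remaining subunit of the TRiC ring, Tcp1, whose symbol the rule does not catch, was at 0.04. Cct6b, a testis form, and Cct8l1 were below the floor on both arrays. In mitochondria, Hspd1 (HSP60) read 11175 in L-Lpcat3 KO liver and 11895 in Lpcat3fl/fl liver (-0.09). Its lid Hspe1 (HSP10) read 9960 in L-Lpcat3 KO liver and 10511 in Lpcat3fl/fl liver (-0.08). These genes share the divergent promoter printed above, with its run of alternating units, and their ratios differed by less than the pooled SD.

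**Figure D3:**
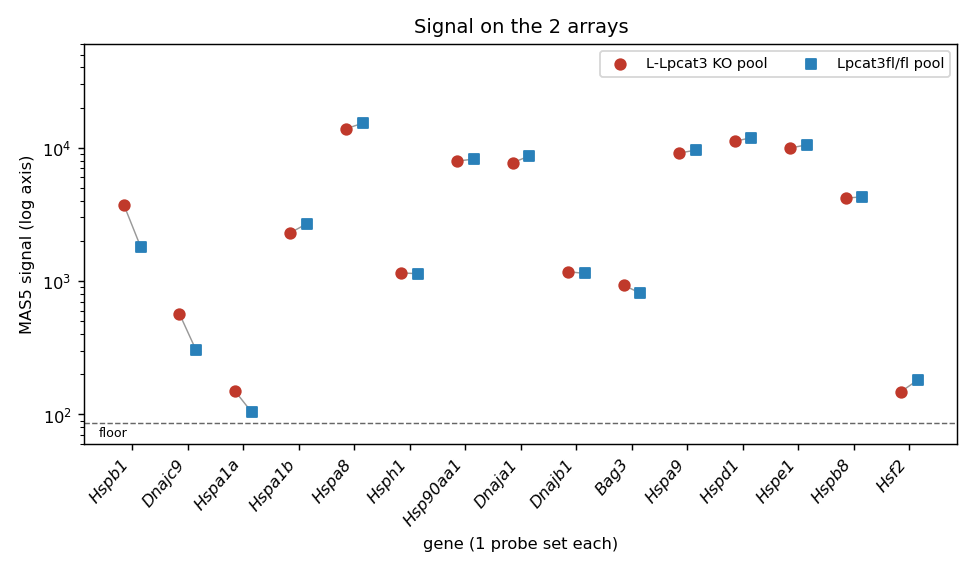
Points give the MAS5 signal (log axis) of 15 chaperone genes on the L-Lpcat3 KO array (red circles, left) and the Lpcat3fl/fl array (blue squares, right), with 1 probe set per gene and the floor as a dashed line. Hspb1 and Dnajc9 show the steepest lines, with 3724 and 569 in L-Lpcat3 KO liver against 1815 and 303 in Lpcat3fl/fl liver, and the lines of Hspa8, Hspd1 and Hspe1 are nearly flat.

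DNAJ proteins pick the clients of HSP70 and start its ATPase cycle. All 4 DNAJA and all 9 measured DNAJB genes were within 1.5-fold, as were 87.1% of all measured genes. The family medians were -0.12 (DNAJA) and -0.05 (DNAJB). Dnaja1, a farnesylated partner of HSP70, read 7710 in L-Lpcat3 KO liver and 8676 in Lpcat3fl/fl liver, and its 3 measured probe sets were all below 0, from -0.43 to -0.17. Dnaja2 was at 8588 in L-Lpcat3 KO liver and 8485 in Lpcat3fl/fl liver (0.02), and the mitochondrial Dnaja3 at 3435 in L-Lpcat3 KO liver and 3617 in Lpcat3fl/fl liver (-0.07). Dnaja4, near the floor, was at -0.29 and -0.39 on its measured probe sets. Dnajb1 (HSP40), an inducible gene, read 1177 in L-Lpcat3 KO liver and 1143 in Lpcat3fl/fl liver (0.04, with -0.06 on the second probe set). Dnajb6, which suppresses polyglutamine aggregation, read 6145 in L-Lpcat3 KO liver and 6433 in Lpcat3fl/fl liver (-0.07). Dnajb5 gave -0.29 on one measured probe set and at least 0.49 on the other, whose Lpcat3fl/fl value was below the floor, so its direction is not settled. Dnajb13, a gene of cilia and sperm, was near the floor on its single probe set, at 158 in L-Lpcat3 KO liver and 108 in Lpcat3fl/fl liver (0.55).

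The DNAJC genes share only the J domain and differ in location and task, and 3 of the 21 measured genes were beyond 1.5-fold. The 85.7% within it was close to the 87.1% of all measured genes. Dnajc9, a nuclear cochaperone of histones, read 569 in L-Lpcat3 KO liver and 303 in Lpcat3fl/fl liver, a 1.88-fold difference (log2 ratio 0.91) on its single probe set. It lies just under the 2-fold threshold and Hspb1 just above it. Genes of DNA replication, picked after their values were seen because DNAJC9 handles newly made histones, were higher on the same array. Mcm5 was at 732 in L-Lpcat3 KO liver and 220 in Lpcat3fl/fl liver, and Mcm6 at 780 in L-Lpcat3 KO liver and 276 in Lpcat3fl/fl liver. Their part in the value of Dnajc9 was not tested. Dnajc11, of the mitochondrial cristae organising system, read 858 in L-Lpcat3 KO liver and 565 in Lpcat3fl/fl liver (0.60), but its second measured probe set was at -0.01. Dnajc24, of diphthamide synthesis, read 135 in L-Lpcat3 KO liver and 208 in Lpcat3fl/fl liver (-0.62), and its second probe set, with the L-Lpcat3 KO value below the floor, gave -0.57 or lower. Dnajc15, a mitochondrial member tied to protein import, was at 3225 in L-Lpcat3 KO liver and 3018 in Lpcat3fl/fl liver (0.10). Of the others, Dnajc7, Dnajc8 and Dnajc25 were at 0.31, 0.36 and 0.35, and Dnajc21, of ribosome assembly, at -0.22. The 3 probe sets that name Dnajc19 together with its pseudogene had log2 ratios from -0.17 to -0.02.

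Among the BAG proteins all 6 genes were within 1.5-fold, as were 87.1% of all measured genes. The BAG median was 0.01. Bag3, an inducible cochaperone of selective autophagy, read 935 in L-Lpcat3 KO liver and 812 in Lpcat3fl/fl liver (0.20). Bag1 read 3296 in L-Lpcat3 KO liver and 3630 in Lpcat3fl/fl liver (-0.14). Hsf2, a heat shock factor, was near the floor at 149 in L-Lpcat3 KO liver and 181 in Lpcat3fl/fl liver (-0.29). Hspbp1, an HSP70 nucleotide exchange factor, was at 0.12, and Hspbap1, which the prefix also caught, at -0.11.

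**Figure D4:**
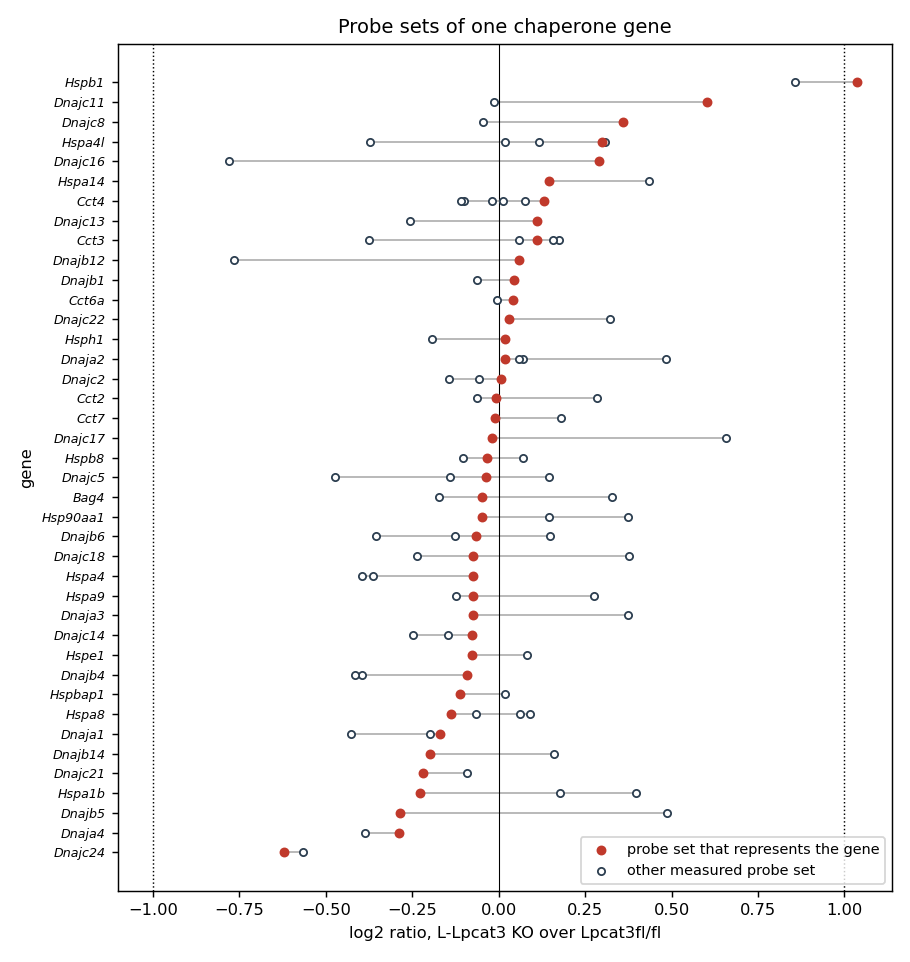
Each row is one of the 40 chaperone genes with more than 1 measured probe set; points are log2 ratios of L-Lpcat3 KO over Lpcat3fl/fl, red for the probe set that represents the gene and open for the others, and dotted lines mark 2-fold. In 29 of the 40 rows the points lie on both sides of 0, and in Hspb1 both lie to the right, at 0.86 and 1.04.

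The probe sets of one gene show how far readings of the same gene disagreed on this pair of arrays. Of the 186 probe sets 138 were measured, 1 was higher by 2-fold or more in L-Lpcat3 KO liver and none lower, while of all measured probe sets with 1 gene symbol 2.36% were 2-fold higher and 0.791% lower. In 29 of the 40 genes with more than 1 measured probe set these had opposite signs, and in 12 they spanned more than 0.5 on the log2 scale. The same counts were not made over all genes, so they do not set the chaperone genes apart. The widest gaps were in Dnajc16 (-0.78 to 0.29) and Dnajb12 (-0.77 to 0.06). The pooled SD among probe sets was 0.23 over the 37 chaperone genes that gave one. Of the 68 chaperone genes 64 had a log2 ratio within 2 times the pooled SD of all genes (0.57), against 86.5% of all measured genes. That span does not hold the spread between mice.

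Stress-inducible targets of Hsf1, inside and outside the set, had a median log2 ratio of 0.02. Of 18 measured genes on this list 1 was 2-fold higher (Hspb1) and none lower, and 83.3% lay within 1.5-fold, against 87.1% of all measured genes. The genes beyond 1.5-fold, Hspb1, Cryab and Serpinh1, were all on the higher side, and the list had an SD of 0.36, against 0.27 for the chaperone genes. Serpinh1 (HSP47), the ER chaperone of collagen, read 713 in L-Lpcat3 KO liver and 473 in Lpcat3fl/fl liver (0.59, with 1.03 on its other probe set). Col1a1 and Col3a1, collagen genes in the list of stellate cell markers, were each at 1.07 on the same array. Their other probe sets were at 0.47 (Col1a1) and 0.79 (Col3a1). The part of stellate cells in the value of Serpinh1 was not tested. Stip1, which bridges HSP70 and HSP90, was at 0.03, and Cirbp, a cold-induced RNA-binding protein gene, at -0.16. Of the 17 measured genes with an 8-letter match in a promoter, 16 were within 1.5-fold and 1 was 2-fold higher. Of all 68 measured chaperone genes, 64 were within 1.5-fold and 1 was 2-fold higher, a similar share. The 4 genes with 3 units ran from -0.09 to 0.02.

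Partner proteins outside the set were also examined. None of 12 co-chaperones of HSP70 and HSP90, of 9 prefoldin and TRiC partners, or of 11 mitochondrial chaperones and proteases reached 1.5-fold. Of all measured genes 87.1% lay within 1.5-fold, as did 94.1% of those with a mean signal of at least 1000. The medians of these lists, in that order, were 0.02, 0.04 and 0.04. Their median absolute log2 ratios were 0.07, 0.14 and 0.17, against 0.11 for the chaperone genes. The largest of these log2 ratios were those of Htra2 (0.41), Grpel2 (0.40), the mitochondrial protease gene Lonp1 (-0.30) and Pfdn4 (0.28). The other probe sets of Htra2 and Grpel2 were at -0.32 and -0.06. The 7 ER chaperones left out by the rule had a median of -0.04, and all lay within 1.5-fold. Immediate early genes were not level: 5 of 15 were at least 2-fold higher, against 2.7% of all measured genes, and the median was 0.54. Of the 15 genes 13 were above 0 and 2 below, Junb at -0.21 and Ier2 at -0.25. For 3 of the 15 the Lpcat3fl/fl value was below the floor.

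**Figure D5:**
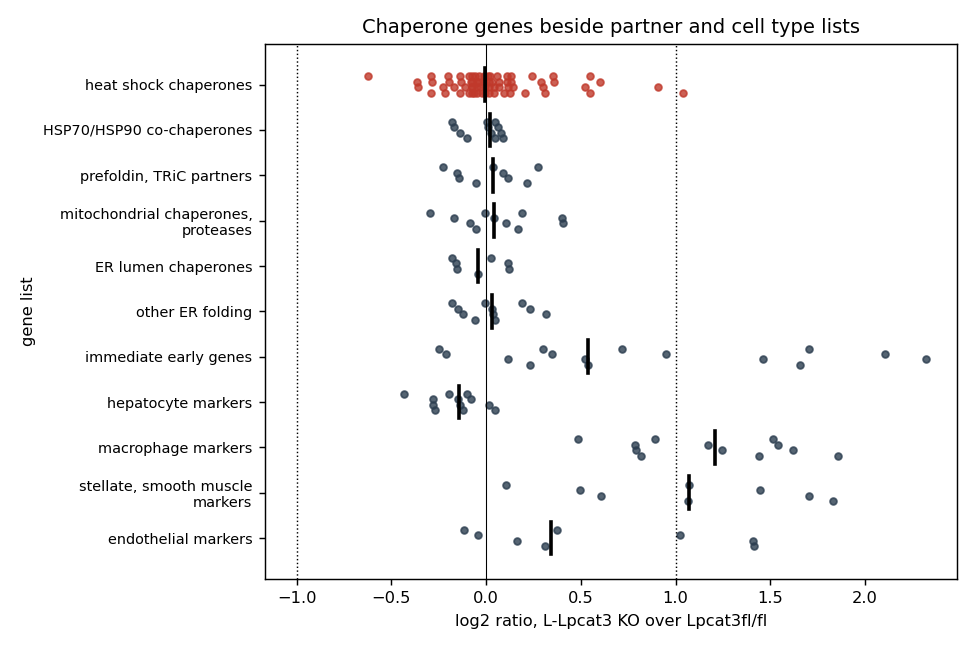
Points are measured genes at their log2 ratio (L-Lpcat3 KO over Lpcat3fl/fl); rows are gene lists, red points are the chaperone genes, black bars are medians and dotted lines mark 2-fold. The chaperone genes and the 5 folding lists under them are centred between -0.04 and 0.04, whereas macrophage markers have a median of 1.21, stellate and smooth muscle markers 1.07 and immediate early genes 0.54.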

How the data were processed

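Liver RNA was measured on 2 Affymetrix Mouse Genome 430 2.0 arrays, 1 pool of 5 mice per genotype. The submitters' processing notes name MAS5 (no version), and the methods name GenespringGX for the analysis. The deposited intensity values are linear MAS5 signals, scaled by the authors: without the outer 2% of probe sets at each end, the mean was 500.0 on both arrays. The scaling takes overall expression as equal in both pools, and dim probe sets are the noisiest. Detection calls were not used here.

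The platform annotation gave the gene of each probe set, and symbols were updated through RefSeq (GRCm38.p6). Of 45101 probe sets, 34945 carried 1 gene symbol and were used, 932 carried several, 9211 were unnamed here, and 64 were controls. Values were raised to a floor at the median of all values (86.6), ratios were taken on each gene's probe set of highest mean log2 signal, and genes were counted at 2-fold, 1.5-fold and 3-fold. With 1 pool per genotype no test was made. The members, gene lists and motifs were chosen with earlier results of these data known. The rule for named genes took every member at 2-fold, in each family the 2 measured members of largest ratio and the member of highest signal, a fixed group of inducible and housekeeping members, and for other lists up to 4 members of largest ratio with Cirbp, Cryab, Serpinh1 and Lpcat3; any further gene in the text was picked with its value in view. The counting was tested on simulated data. Alternatives were other normalizations, floors, a pseudocount, probe set choices and fold thresholds. Python 3.11.15, numpy 2.4.6, pandas 2.3.3, statsmodels 0.14.6 and matplotlib 3.10.9 were used.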

Additional observations from a re-analysis of the deposited data

How the results depend on the processing

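The median log2 ratio of the chaperone genes stayed between -0.02 and 0.02 under 9 other normalizations, floors and probe set choices, and the ratio of Hspb1 between 0.95 and 1.06. The count of genes at least 2-fold higher was 2 with a floor at the 25th percentile or with values below the floor kept, and 0 with the mean of probe sets. Over all genes the count was 1132 with the floor at the 25th percentile and 654 with values below the floor kept, against 332 with the floor at the median. In these settings Hspb2 joined Hspb1, at 1.21, and with the mean of probe sets Hspb1 fell short at 0.95. These counts are also those of the small heat shock proteins, whose median was 0.37 with the floor at the 25th percentile. At 1.5-fold 3 genes were higher and 1 lower, of which 2 and 1 were DNAJC genes, and at 3-fold the count was 0. Other counts stayed within 1.5 times and other family medians within the pooled SD of 0.29. Inside that SD, the mean of probe sets turned the sign of Hsp90aa1, the one measured HSP90 gene, to 0.16 and of the HSP110 median to -0.09. The floor at the 75th percentile turned the HSP70 median to -0.11. With the floor at the 75th percentile the ratio of Dnajc9 was 0.49 or higher, and with the mean of probe sets Hspa1b was at 0.12 and Dnajb5 at 0.10; Dnajb5 was at 0.49 or higher without probe sets that can match several transcripts. Near the floor a signal limits a ratio to a bound. No paired analysis was possible because each genotype is a single pool.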
